A study of Mus musculus with 9 samples.

Results

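Macrophages reside in the ovary among the follicles and in corpora lutea, and a preparation of granulosa cells can carry some of them. The 10 genes described here are used as markers of macrophages and were listed by name, with earlier results of these data known. The list holds C1qa, C1qb and C1qc, which encode the chains of complement C1q, and Cd68, Csf1r, Adgre1, Lyz2, Cd14, Mrc1 and Tyrobp. They were found by symbol among 56748 identifiers, 1 identifier per gene, and all 10 were among the 14431 genes kept for testing, which reached 1 FPKM in 3 or more of the 9 libraries. FPKM divides reads by gene length and by library size, so that levels of different genes can be set side by side.

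The libraries were made from polyadenylated RNA of granulosa cells, the somatic cells around the oocyte, taken from wild-type female C57BL/6 mice and not cultured. The CTX_HCQ mice received cyclophosphamide, an alkylating drug, injected at 120 mg per kg, and hydroxychloroquine, a drug that accumulates in lysosomes, by mouth at a daily 40 mg per kg, started 7 days ahead of the injection and kept up for 4 weeks past it. The CTX mice received the same cyclophosphamide alone, as a model of premature ovarian failure. The Control mice are called vehicle-treated in the design text and untreated in the sample labels. Each group had 3 libraries. The sources used here give neither the age nor whether 1 mouse or several made up a library. The p-values therefore reflect the spread among these libraries alone, part of which may be technical.

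C1q is the recognition molecule of the classical complement pathway. Its A, B and C chains assemble together into one hexameric bundle, which binds antibody complexes, dying cells and debris and activates the proteases C1r and C1s. Unlike most complement proteins, which the liver makes, C1q comes mainly from macrophages and related cells, and in tissues it also assists the clearance of apoptotic cells. Macrophages depend on signalling by the CSF1 receptor and on the transcription factor PU.1, the product of Spi1. In the ovary they are known for clearing cells of atretic follicles and regressing corpora lutea.

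The C1q genes stand side by side in the reference annotation, with 0 other genes listed between them, and PU.1 binds a purine-rich core. The 250 bases before the start sites of 4 of these genes are shown because they are the stretches in which this core can be seen or is missing in genes followed below. They are RefSeq sequences of build GRCm38.p6, read 5′ to 3′ along each gene's strand, and capitals mark the core AGGAAGT, which here reads ACTTCCT because it lies on the opposite strand. The windows are chr4:136886201-136886450 for C1qb, chr4:136892915-136893164 for C1qc, chr10:117282273-117282522 for Lyz2 and chr11:69666171-69666420 for Cd68, all on the minus strand.
C1qb: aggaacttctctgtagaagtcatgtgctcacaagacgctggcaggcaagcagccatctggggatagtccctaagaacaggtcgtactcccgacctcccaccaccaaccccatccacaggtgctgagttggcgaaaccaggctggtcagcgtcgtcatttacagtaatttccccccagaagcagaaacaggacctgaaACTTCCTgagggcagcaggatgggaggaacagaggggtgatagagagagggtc
C1qc: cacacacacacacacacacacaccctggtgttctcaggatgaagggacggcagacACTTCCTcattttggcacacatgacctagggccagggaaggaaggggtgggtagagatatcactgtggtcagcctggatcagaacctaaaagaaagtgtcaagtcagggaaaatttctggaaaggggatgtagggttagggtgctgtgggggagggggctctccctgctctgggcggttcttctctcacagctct
Lyz2: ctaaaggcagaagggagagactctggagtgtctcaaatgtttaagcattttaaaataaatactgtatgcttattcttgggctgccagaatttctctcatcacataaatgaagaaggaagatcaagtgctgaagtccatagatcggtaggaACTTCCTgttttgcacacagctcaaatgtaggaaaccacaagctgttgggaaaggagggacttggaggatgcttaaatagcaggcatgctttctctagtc
Cd68: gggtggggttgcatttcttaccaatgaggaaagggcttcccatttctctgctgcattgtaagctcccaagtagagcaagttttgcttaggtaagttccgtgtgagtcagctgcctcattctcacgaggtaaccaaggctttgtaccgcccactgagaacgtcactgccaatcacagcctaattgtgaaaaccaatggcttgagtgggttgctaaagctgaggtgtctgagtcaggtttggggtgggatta
The first base of the core lay 53 bases before the start site in C1qb, 195 in C1qc and 100 in Lyz2. Cd68 held none. Mrc1, the only other member with a promoter sequence at hand, held it 211 bases before its start site, so 4 of 5 member promoters had the core on either strand, where 2525 of 32851 promoters of the same length, 7.69%, did. The longer form GAGGAAGT was found in C1qc alone of the 5, and in 802 promoters, 2.44%. It contains the shorter core. The motif was chosen after the sequences had been seen, and a match of letters is a description, not a binding site.

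The reads recovered from the FPKM summed to 13891428 in CTX_HCQ 3 up to 17746228 in Control 2. The library size behind the FPKM was 15344525 and 17943266 in these libraries, the lowest and the highest. The 2 totals are not the same measure, and in CTX 1 the recovered sum of 17286570 exceeded the library size of 16820966. The libraries did not separate by group, with a mean correlation across genes of 0.941 within groups and 0.936 between groups. CTX 3 stood apart in its mitochondrial transcripts, at 28.9% of FPKM against 11.7% to 17.5% in the other 8 libraries. Markers of the labelled cell type were abundant in every library. Foxl2, a transcription factor of granulosa cells, lay between 67.8 and 103.8 FPKM, Fshr, the receptor of follicle-stimulating hormone, between 18.2 and 45.7, and the inhibin gene Inha between 2865 and 4951. The 10 macrophage genes together made up 0.048% to 0.083% of the FPKM of a library.

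The macrophage genes spanned a wide range of levels, with Lyz2 highest and Mrc1 lowest on average. Over the 9 libraries Lyz2, which encodes lysozyme, averaged 96.3 ± 21.9 FPKM (SD, n = 9). Below it followed C1qa at 31.3 ± 6.96, C1qb at 28.2 ± 5.88 and C1qc at 12.2 ± 2.34. Tyrobp, the adaptor DAP12 that couples surface receptors to the kinase Syk, averaged 11.8 ± 4.19, and Cd68, a membrane glycoprotein of lysosomes, 9.79 ± 2.83. Csf1r, the receptor of CSF1 and IL-34, averaged 5.62 ± 1.29, and Cd14, a co-receptor for bacterial lipopolysaccharide, 3.19 ± 1.48. Adgre1, which encodes the macrophage antigen F4/80, averaged 2.91 ± 0.545, and Mrc1, the mannose receptor, 2.39 ± 0.573. Neighbours in this order were not all separated: C1qc exceeded Tyrobp in 5 of 9 libraries, Tyrobp exceeded Cd68 in 5, Cd14 exceeded Adgre1 in 5 and Adgre1 exceeded Mrc1 in 7. C1qa exceeded C1qb in 8, and the other steps of the order held in all 9. Of 7 markers shared by leukocytes, 6 passed the filter, among them Laptm5 at 5.13 to 10.3 FPKM, Coro1a at 4.38 to 10.3, Cd52 at 3.07 to 5.85 and Cd53 at 3.05 to 6.15. Ptprc, which encodes CD45, lay between 0.416 and 0.995 FPKM and did not pass, nor did the macrophage genes Cd163 and Itgam.

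The C1q chain genes varied less in their ratios than in their levels. C1qa had 30.5, 42.4 and 22.1 FPKM in CTX_HCQ libraries, 32.1, 26.3 and 38.7 in CTX libraries and 36.2, 30.3 and 22.6 in Control libraries. C1qb had 26.9, 35.7 and 18.1 FPKM in CTX_HCQ, 30.2, 32.1 and 32.5 in CTX and 31.6, 27.0 and 20 in Control. C1qc had 13.5, 15.8 and 8.4 FPKM in CTX_HCQ, 11, 12.1 and 14.6 in CTX and 12, 12.7 and 9.46 in Control. All 3 chains were highest in CTX_HCQ 2 and lowest in CTX_HCQ 3, so that the extremes lay within one group and the groups overlapped for every chain. The ratio of C1qa to C1qb had a geometric mean of 1.11 and ran from 0.821 in CTX 2 to 1.22 in CTX_HCQ 3. The ratio of C1qc to C1qb had a geometric mean of 0.433 and ran from 0.365 in CTX 1 to 0.501 in CTX_HCQ 1. The SD of these log2 ratios over the libraries was 0.172 and 0.168, while that of the log2 levels was 0.327 for C1qa, 0.331 for C1qb and 0.289 for C1qc. CTX 2 was the library in which C1qa lay below C1qb.

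**Figure D1:**
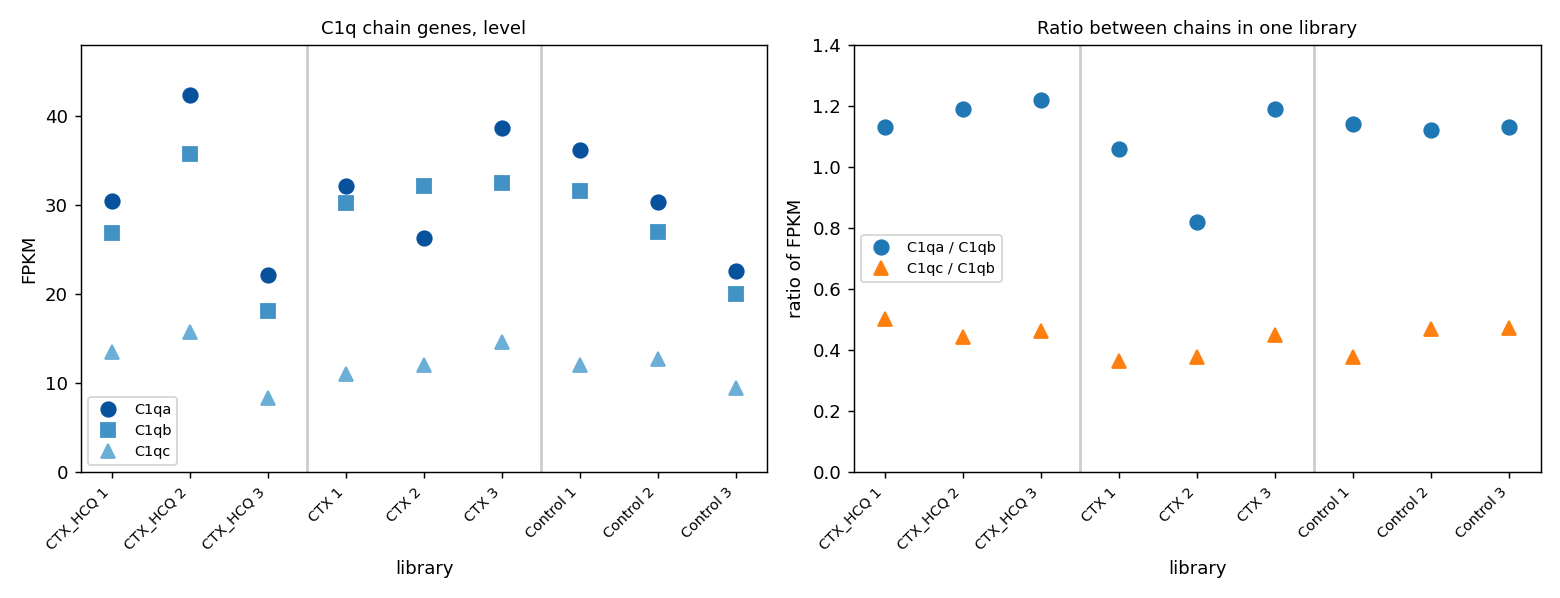
FPKM of C1qa, C1qb and C1qc in each of the 9 libraries (left), and the ratio of C1qa to C1qb and of C1qc to C1qb in the same libraries (right). As deposited, the levels run from 22.1 to 42.4 FPKM for C1qa with both extremes in CTX_HCQ, while the ratio of C1qc to C1qb stays between 0.365 and 0.501.

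The summed C1q level was 71.1 ± 22.6 FPKM in CTX_HCQ, 76.6 ± 8.1 in CTX and 67.3 ± 14.0 in Control (SD, n = 3 each). By library it was 70.9, 93.8 and 48.7 in CTX_HCQ, 73.4, 70.5 and 85.8 in CTX and 79.8, 70.1 and 52.1 in Control. The spread within CTX_HCQ and within Control was wider than the distance between the group means.

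The first comparison, CTX with Control, asked whether the macrophage genes differed after cyclophosphamide. None of the 10 passed the threshold, an adjusted p under 0.05 in limma with Benjamini-Hochberg adjustment over all tested genes, and none of the 14431 genes did, a background of 0.0%. At an unadjusted p under 0.05 there were 0 members, while 1126 genes, 7.8%, reached it. voom on recovered reads also called 0 genes, with 1125 at an unadjusted p under 0.05. In these bulk samples fewer cells of a type and less RNA per cell cannot be told apart. On the log2(FPKM + 1) scale, which understates changes of low genes, 7 members were higher in CTX and 3 lower, with a median log2 difference of 0.12 beside -0.00 over all tested genes. With FPKM rescaled to a common total per library the split was 3 higher and 7 lower, with a median of -0.06 beside -0.16.

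On the log2(FPKM + 1) scale the receptor adaptor Tyrobp showed the widest gap. The ratio of the group means was 1.57 for both Tyrobp and Cd14. It had 15.1, 12.3 and 19.5 FPKM in CTX libraries and 12.1, 9.61 and 8.18 in Control libraries. Every CTX value lay above every Control value, as it did for 8.72% of tested genes, though CTX 2 and Control 1 were 12.3 and 12.1. The log2 difference was 0.60 (SE 0.29, 95% interval -0.04 to 1.23, limma adjusted p 0.652). Tyrobp rested on 72 to 214 reads per library. Cd14 had 3.02, 3.9 and 6.19 FPKM in CTX and 4.29, 2.38 and 1.68 in Control, and the groups overlapped through Control 1. On the log2 scale it was higher by 0.52 in CTX (SE 0.32, 95% interval -0.2 to 1.24, limma adjusted p 0.657), on 37 to 176 reads per library, where counting alone gives an error of 16.4% at the fewest reads. The difference was 0.79 without Control 1, 0.29 without CTX 3 and 0.3 without Control 3.

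The C1q chains differed by less than their spread. C1qb averaged 31.6 ± 1.2 FPKM in CTX and 26.2 ± 5.85 in Control, or 0.28 on the log2 scale (95% interval -0.29 to 0.86). C1qa averaged 32.4 ± 6.18 in CTX and 29.7 ± 6.8 in Control, a difference of 0.13 (interval -0.48 to 0.74). C1qc averaged 12.6 ± 1.84 in CTX and 11.4 ± 1.7 in Control, a difference of 0.13 (interval -0.39 to 0.66). A rise or fall of the size these intervals allow was not detectable with 3 libraries a group.

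The remaining members lay closer to 0 or had wide groups. Cd68 had 7.24, 9.96 and 16.7 FPKM in CTX and 10, 10.8 and 8.78 in Control, so the CTX group held both the lowest and the highest library. Csf1r had 3.72, 6.38 and 6.83 FPKM in CTX and 6.49, 6.31 and 4.62 in Control, with -0.06 between them on the log2 scale (interval -0.62 to 0.5). Lyz2 had 81.3, 111.3 and 97.4 FPKM in CTX and 95.4, 108.2 and 66.9 in Control, and the difference of 0.12 had an interval of -0.52 to 0.75. These groups overlapped throughout. Adgre1 had 2.41, 3.18 and 2.12 FPKM in CTX and 3.71, 3.37 and 2.64 in Control, a difference of -0.25 (interval -0.67 to 0.17). Mrc1 had 2.68, 2.46 and 1.5 FPKM in CTX and 2.9, 2.57 and 1.47 in Control, a difference of -0.04. The F4/80 gene Adgre1 was thus the member with the lowest difference on the log2(FPKM + 1) scale, while the adaptor gene Tyrobp had the highest.

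**Figure D2:**
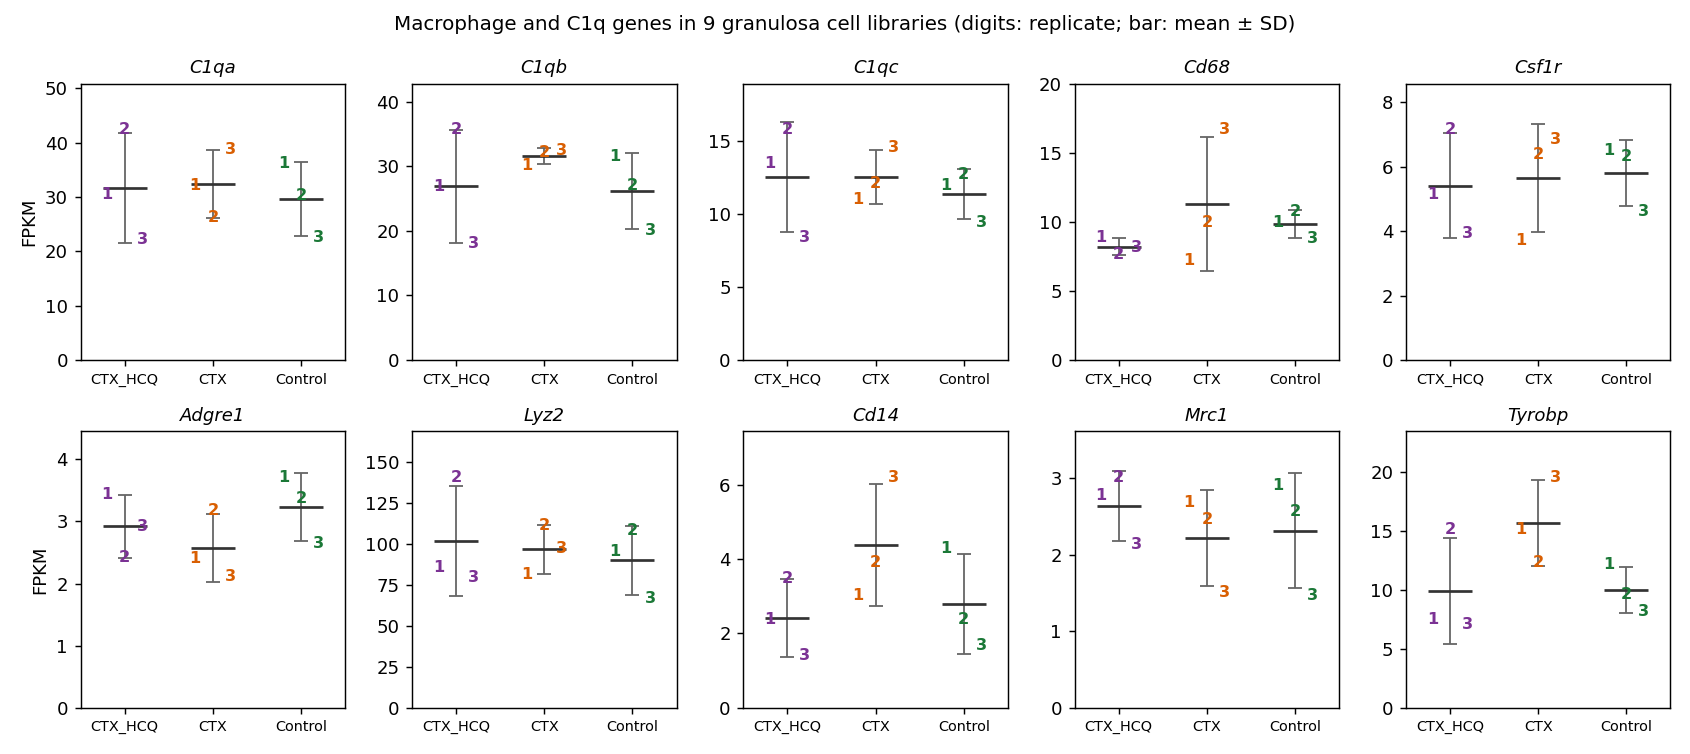
FPKM of the 10 genes in CTX_HCQ, CTX and Control, with a digit for each library's replicate number and a bar for the group mean ± SD (n = 3). The groups overlap in each panel except for CTX against Control in Tyrobp, where 12.3 to 19.5 FPKM stand against 8.18 to 12.1.

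The second comparison, CTX_HCQ with CTX, asked whether hydroxychloroquine altered these genes in mice given cyclophosphamide. None of the 10 members passed in limma, nor any of the 14431 genes (0.0%), and voom called 0 with 744 genes at an unadjusted p under 0.05. In the limma fit 1 member, Tyrobp, stood at an unadjusted p under 0.05, which 785 genes, 5.44%, reached. Members were higher in CTX_HCQ in 3 cases and lower in 7, with a median log2 difference of -0.06 beside 0.01 over all genes, and with rescaled FPKM higher in 6 and lower in 4, with a median of 0.17 beside 0.23. For 0 members did the groups lack overlap, where 3.45% of tested genes were higher and 4.57% lower without overlap. This comparison shares the CTX libraries with the first.

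Tyrobp had 7.51, 15.1 and 7.03 FPKM in CTX_HCQ and 15.1, 12.3 and 19.5 in CTX. CTX_HCQ 2 stood at the level of CTX 1, and the other CTX_HCQ libraries lay below all of CTX. The log2 difference was -0.67 (SE 0.29, 95% interval -1.3 to -0.03, unadjusted p 0.0417 and adjusted p 0.906 in limma). It was -0.99 without CTX_HCQ 2 and -0.49 without CTX_HCQ 3. Cd14 had 2.37, 3.47 and 1.39 FPKM in CTX_HCQ and 3.02, 3.9 and 6.19 in CTX, a difference of -0.66 (SE 0.32, interval -1.38 to 0.06, limma adjusted p 0.906). It was -0.43 without CTX 3, the library with the most Cd14, and -0.43 without CTX_HCQ 3.

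Cd68 had 8.88, 7.64 and 8.14 FPKM in CTX_HCQ and 7.24, 9.96 and 16.7 in CTX, a difference of -0.34 (interval -0.9 to 0.22). The CTX_HCQ libraries were the closest to each other, and CTX 3 alone lay far above them. C1qb averaged 26.9 ± 8.77 FPKM in CTX_HCQ and 31.6 ± 1.2 in CTX, a difference of -0.27 (interval -0.85 to 0.3). C1qa averaged 31.7 ± 10.2 in CTX_HCQ and 32.4 ± 6.18 in CTX, and C1qc 12.6 ± 3.78 in CTX_HCQ and 12.6 ± 1.84 in CTX. The differences of C1qa, C1qc, Csf1r and Lyz2 lay between -0.06 and 0.04. Those of Adgre1 and Mrc1, which were higher in CTX_HCQ on average, were 0.14 and 0.19, with overlapping groups.

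In the comparison of CTX_HCQ with Control, which shares libraries with both of the others, the differences were the smallest of the 3 comparisons in range. Limma called 0 members and 0 genes (0.0%), voom called 0, and 312 genes, 2.16%, but 0 members stood at an unadjusted p under 0.05. The differences ran from -0.23 for Cd68 to 0.16 for Lyz2, 5 higher and 5 lower, with a median of -0.03 beside -0.01 over all genes. Cd68 averaged 8.22 ± 0.62 FPKM in CTX_HCQ and 9.86 ± 1.01 in Control. Lyz2 averaged 101.9 ± 33.7 FPKM in CTX_HCQ and 90.2 ± 21.2 in Control, with CTX_HCQ 2 at 140.7 FPKM the highest of all libraries. The log2 differences of the C1q chains were 0.07 for C1qa, 0.01 for C1qb and 0.1 for C1qc. Those of the receptors were -0.11 for Csf1r, -0.11 for Adgre1, -0.14 for Cd14 and 0.15 for Mrc1, and that of the adaptor gene Tyrobp was -0.07. The groups overlapped for all 10 genes, where 3.25% of tested genes were higher and 3.06% lower without overlap. The 95% intervals of the 10 genes reached from -0.85 to 0.79.

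**Figure D3:**
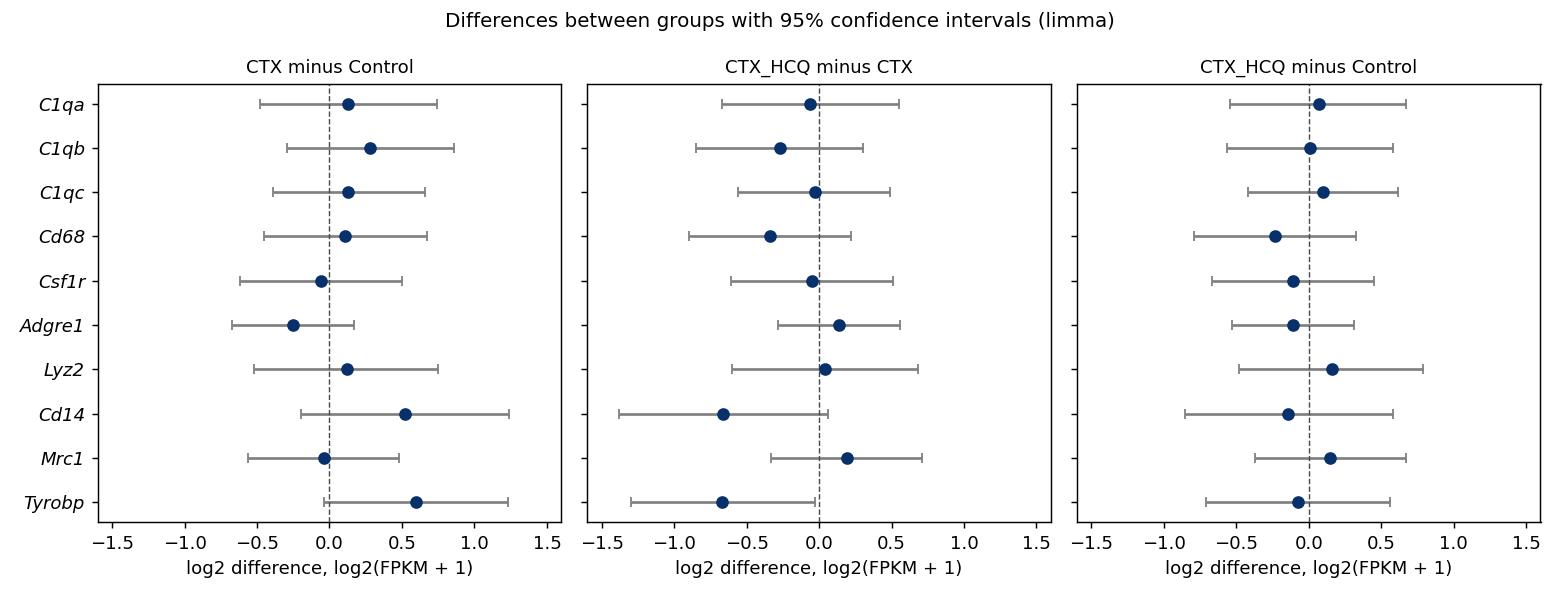
Difference of group means on the log2(FPKM + 1) scale for each gene, with limma's 95% interval, for CTX minus Control, CTX_HCQ minus CTX and CTX_HCQ minus Control. The intervals include 0 except that of Tyrobp in CTX_HCQ minus CTX, -1.3 to -0.03, and no adjusted p is under 0.05.

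For most of the members the libraries of a group lay apart from each other more than the groups did. The share of log2 variance between groups was 45.9% for Tyrobp, 36.4% for Cd14 and 28.9% for Adgre1, and 3.09% for C1qa, 4.99% for Lyz2 and 2.46% for Csf1r. The median over the 10 members was 15%, beside 23.1% over all tested genes. CTX_HCQ 2 was the highest library for 6 of the 10 genes, CTX 3 for Cd68, Cd14 and Tyrobp, and Control 1 for Adgre1. CTX_HCQ 3 was the lowest for 5 and among the 3 lowest for 9, and Control 3 was among the 3 lowest for 8. Libraries of one group, CTX_HCQ 2 and CTX_HCQ 3, thus held 6 of the highest and 5 of the lowest values in FPKM as deposited. As a share of a library's FPKM, the 10 genes together were highest in CTX_HCQ 2, at 0.083%, and lowest in Control 3, at 0.048%. That share was 0.0624% in CTX_HCQ 3.

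Tested genes under 1500 bases deviated in the members' direction in CTX_HCQ 2, CTX_HCQ 3 and CTX 3, but little in Control 3. The part of gene length in the pattern was not tested beyond the values that follow. Relative to each gene's mean, the median log2 deviation of the 5 shorter members (667 to 1316 bases of exon) was 0.39 in CTX_HCQ 2, -0.45 in CTX_HCQ 3, 0.33 in CTX 3 and -0.42 in Control 3. That of the 2319 tested genes under 1500 bases was 0.23, -0.28, 0.24 and -0.06 in these libraries. The 5 longer members (1732 to 6371 bases) had 0.26, -0.4, 0.27 and -0.31, in the same direction as the shorter ones. The 8932 tested genes over 3000 bases had -0.06, 0.06, -0.11 and 0.03. Of the longer members, Cd14 (1732 bases) and C1qc (1931 bases) do not reach that limit. With each library's trend on length removed, a setting chosen after the data had been seen, the SD of the log2 values was 0.214 for C1qa, 0.214 for C1qb and 0.188 for C1qc, against 0.316, 0.319 and 0.266 as deposited. For Tyrobp, the shortest member at 667 bases, it was 0.333 against 0.468, and for Csf1r it was 0.323, against 0.298. The log2 deviations of Tyrobp after removal were 0.26, 0.16 and 0.51 in CTX and 0.14, -0.08 and -0.36 in Control. As deposited they were 0.39, 0.12 and 0.75 in CTX and 0.1, -0.21 and -0.41 in Control. The median deviation of all 10 members was then 0.21 in CTX_HCQ 2, -0.19 in CTX_HCQ 3 and -0.36 in Control 3.

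**Figure D4:**
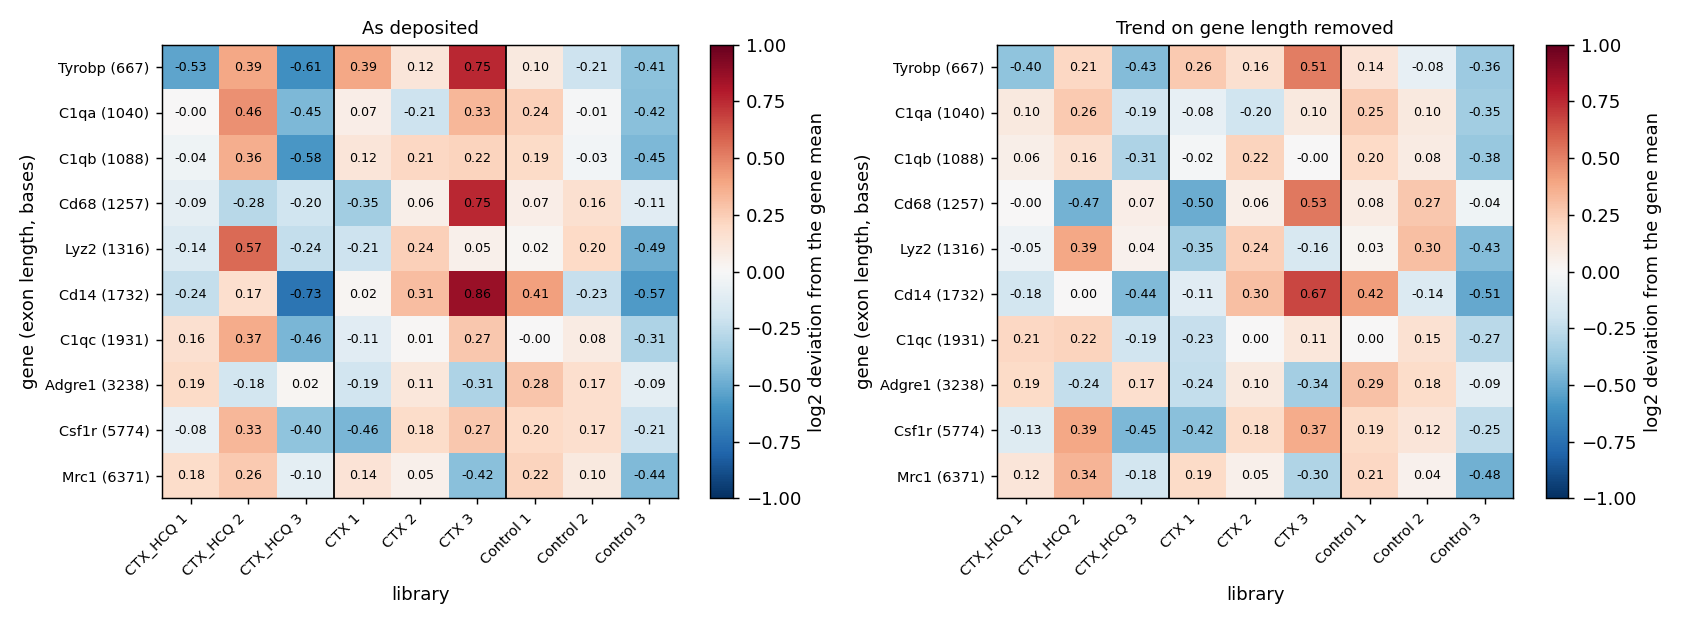
Log2 deviation of each gene from its mean over the 9 libraries, as deposited (left) and with each library's trend on gene length removed (right), with genes ordered by exon length. CTX_HCQ 3 and Control 3 are low for most genes as deposited, with median deviations of -0.43 and -0.42, and -0.19 and -0.36 after removal.

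The other members followed the C1q chains to different degrees across libraries. Over 9 libraries the mean standardised C1q level correlated with Cd14 at r = 0.815 (exact permutation p 0.00745, adjusted 0.0359; rho = 0.7, p 0.0433, adjusted 0.101). For Tyrobp r was 0.766 (exact permutation p 0.0147, adjusted 0.0359; rho = 0.7, p 0.0433, adjusted 0.101). For Lyz2 r was 0.762 (exact permutation p 0.0184, adjusted 0.0359; rho = 0.567, p 0.121, adjusted 0.169), and for Csf1r 0.74 (exact permutation p 0.0205, adjusted 0.0359; rho = 0.733, p 0.0311, adjusted 0.101). The adjustment was over 7 relations, and all tests were two-sided. Many other genes were as close to C1q: 2.51% of the 14431 tested genes had an r at or above that of Cd14, 5.02% that of Tyrobp, 5.31% that of Lyz2 and 6.72% that of Csf1r. Without CTX_HCQ 3 and Control 3, the libraries farthest from the median C1q level, r was 0.509 for Cd14, 0.585 for Tyrobp, 0.599 for Lyz2 and 0.573 for Csf1r, with exact permutation p of 0.243, 0.182, 0.158 and 0.159 over 7 libraries. None of these p was under 0.05 with fewer libraries and a narrower range of C1q. Mrc1 (r = 0.414, rho = 0.617, exact permutation p 0.261 and 0.0857), Cd68 (r = 0.315, rho = 0.167, exact permutation p 0.402 and 0.678) and Adgre1 (r = -0.18, rho = -0.167, exact permutation p 0.629 and 0.678) did not pass. With the length trend removed r was 0.607 for Cd14, 0.461 for Tyrobp, 0.664 for Lyz2, 0.773 for Csf1r and 0.71 for Mrc1.

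The 10 tested genes outside the members with the pattern most like C1q, by Pearson's r over the 9 libraries, were Ldhb (0.965), Chchd5 (0.964), Rpl17 (0.956), Crnkl1 (0.952), Haghl (0.951), Apof (0.949), Atp1b3 (0.945), Cbr3 (0.943), Lipt2 (0.942) and H2-Ab1 (0.938). They were chosen for this likeness, so r is a description. All 10 were lowest in CTX_HCQ 3. H2-Ab1, a chain of an MHC class II molecule that presents antigen, ran from 17.1 FPKM there to 32.7 in CTX_HCQ 2.

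Genes of the classical and lectin pathways of complement were also without calls. Of 13 classical and lectin pathway genes 10 were tested, and limma called 0 in each comparison; between CTX and Control 3 were higher and 7 lower in CTX, with a median log2 difference of -0.3. The split was the same with rescaled FPKM. C3, the central component, had 22.3, 56.6 and 52.1 FPKM in CTX and 57.1, 156.2 and 92.6 in Control. The groups did not overlap, though CTX 2 and Control 1 stood next to each other. The difference was -1.19 (unadjusted p 0.0357, limma adjusted p 0.639). C4b, which C1s cleaves, had 2.61, 5.19 and 4.62 FPKM in CTX and 5.47, 14.1 and 6.96 in Control, a difference of -0.88 (limma adjusted p 0.639). The scavenger collectin Colec12 averaged 2.07 ± 0.259 FPKM in CTX and 3.75 ± 0.722 in Control. Colec11, a soluble collectin, averaged 6.16 ± 2.43 FPKM in CTX and 2.41 ± 2.36 in Control. In CTX_HCQ, C3 averaged 49.1 ± 27.1 FPKM and C4b 4.7 ± 1.01, against 101.9 ± 50.2 and 8.86 ± 4.64 in Control, with overlapping groups.

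Regulators of complement showed a like absence of calls, with 10 of 14 tested. Between CTX and Control 5 were higher and 5 lower in CTX, with a median of 0.01. With rescaled FPKM 0 were higher and 10 lower, with a median of -0.14 beside -0.16 over all genes. Between CTX_HCQ and CTX the split was 5 and 5 as deposited, and with rescaled FPKM 10 higher and 0 lower in CTX_HCQ, with a median of 0.18 beside 0.23. Susd4, a membrane regulator of complement, had 9.61, 8.78 and 8.72 FPKM in CTX_HCQ and 6.35, 6.11 and 8.27 in CTX, without overlap (log2 difference 0.35, unadjusted p 0.215, limma adjusted p 0.906). Serping1, the inhibitor of C1r and C1s, had 34.1, 34.3 and 33.5 FPKM in CTX_HCQ and 48, 50.1 and 37.0 in Control, also without overlap. Clusterin, Clu, averaged 400.5 ± 33.5 FPKM in CTX and 525.1 ± 55.3 in Control. Groups did not overlap for 19.7% of all tested genes in CTX against Control, 8.02% in CTX_HCQ against CTX and 6.31% in CTX_HCQ against Control.

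**Figure D5:**
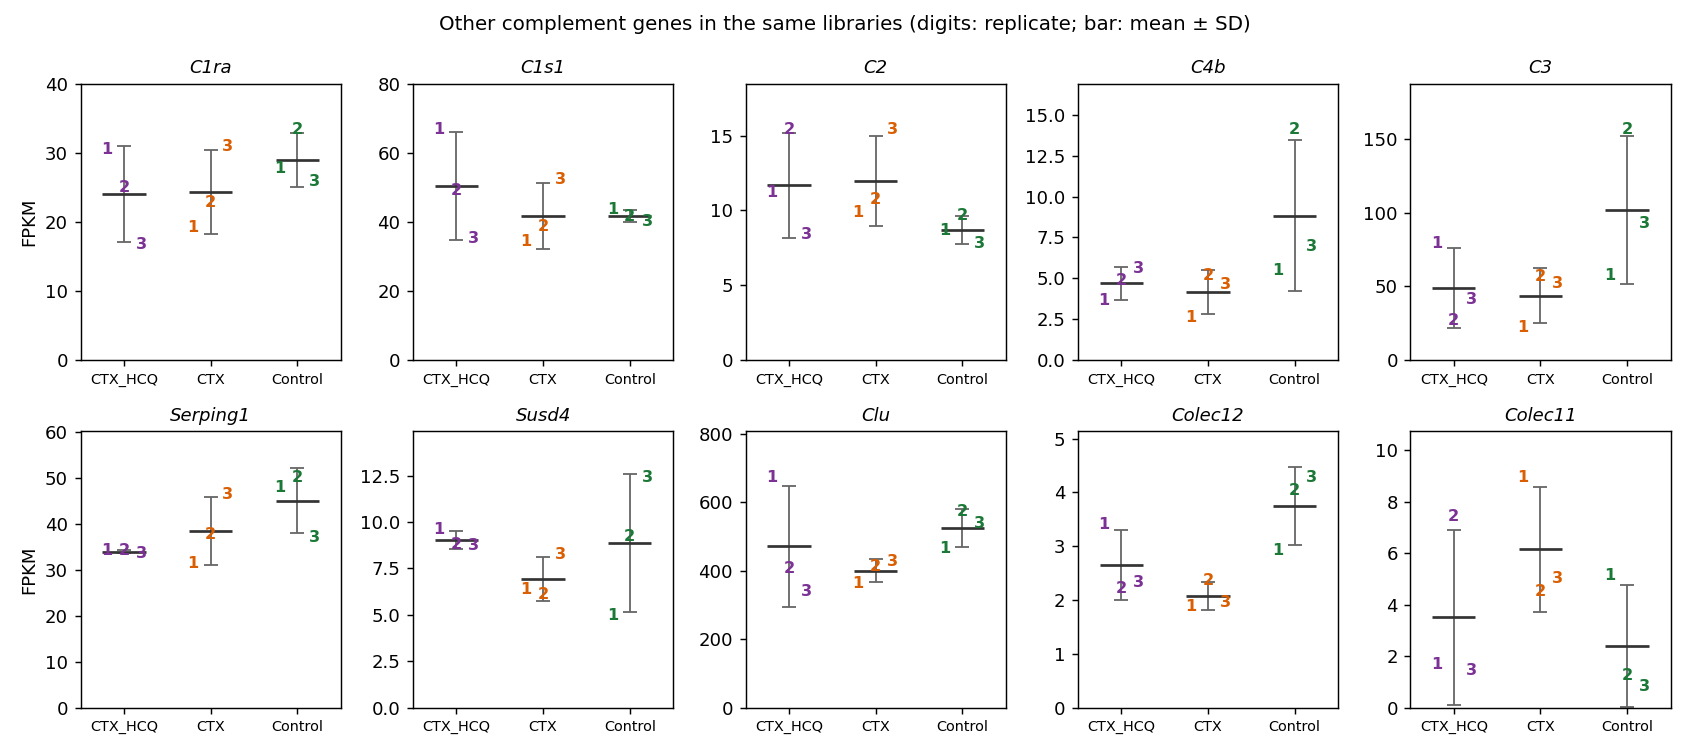
FPKM of 10 other complement genes in CTX_HCQ, CTX and Control, with a digit for each library's replicate number and a bar for the group mean ± SD (n = 3). Serping1 lies at 33.5 to 34.3 FPKM in CTX_HCQ, below the 37.0 to 50.1 of Control, and C3 at 22.3 to 56.6 in CTX, below the 57.1 to 156.2 of Control.

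Of the alternative and terminal components, 4 of the 10 in the table were tested and 0 were called; C7 averaged 2.01 ± 0.645 FPKM in CTX_HCQ and 0.896 ± 0.438 in CTX. Among complement receptors 6 of 11 were tested and 0 called, with Lrp1, a clearance receptor, at 40.8 ± 8.37 in CTX and 64.1 ± 15.4 in Control. The lectin pathway gene Mbl1 and the ficolin gene Fcnb were listed at 0 in all 9 libraries.

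Other macrophage genes were likewise without calls, with 22 of 32 tested and 0 called by limma in any comparison. Their median log2 difference was 0.02 for CTX against Control, 0.03 for CTX_HCQ against CTX and -0.04 for CTX_HCQ against Control. With rescaled FPKM the first was -0.12 and the second 0.24, beside -0.16 and 0.23 over all genes. Fcer1g, an adaptor of Fc receptors like Tyrobp in kind, had 9.93, 9.22 and 18.1 FPKM in CTX and 8.76, 7.97 and 5.69 in Control, without overlap (difference 0.62, limma adjusted p 0.639). Cd53, a leukocyte tetraspanin, had 3.05, 4.24 and 3.14 FPKM in CTX_HCQ and 4.88, 5.74 and 6.15 in CTX, without overlap (difference -0.56, unadjusted p 0.0148, limma adjusted p 0.748). Of the 6 tested leukocyte markers, Cd53 among them, 1 was higher and 5 lower in CTX than in Control, with a median of -0.23. Between CTX_HCQ and CTX 2 were higher and 4 lower in CTX_HCQ (median -0.06), and between CTX_HCQ and Control 0 and 6 (median -0.32). Limma called 0 of them. Spi1, which encodes PU.1, ran from 1.35 FPKM in CTX_HCQ 3 to 3.47 in Control 2.

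Genes upstream and downstream of the member receptors were also without calls. The CSF1 receptor's ligands were present, Csf1 at 1.7 to 4.04 FPKM and Il34 at 2.76 to 7.11, and of 10 genes in this list 8 were tested. Plau, which CSF1 induces in macrophages, averaged 51.8 ± 6.82 FPKM in CTX and 87.6 ± 16.7 in Control (difference -0.74, unadjusted p 0.0343, limma adjusted p 0.639). Which cells gave the Plau reads is not known from these bulk samples, and a link of its level to CSF1 was not tested. Of 16 TYROBP partners and signalling genes 5 were tested. Trem2, a receptor that signals through this adaptor, lay between 1.15 and 2.5 FPKM. Of 14 genes for CD14 and toll-like receptor sensing 8 were tested. Tlr4, the receptor that CD14 serves, lay between 0.412 and 0.804 FPKM and did not pass the filter.

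Activation genes gave mixed values, with 9 of 21 tested. The chemokine gene Ccl5 had 1.57, 2.2 and 1.09 FPKM in CTX_HCQ and 3.53, 2.51 and 3.04 in CTX, without overlap (difference -0.63, unadjusted p 0.0145, limma adjusted p 0.748). Against Control, at 4.48, 5.28 and 3.41 FPKM, its difference in CTX_HCQ was -1.05 (unadjusted p 0.000644, limma adjusted p 1.0). T and NK cells also express Ccl5, and their 10 markers, 3 of them tested, summed to 4.36 to 7.67 FPKM in CTX_HCQ, 5.66 to 7.91 in CTX and 7.37 to 14 in Control. Gzma, a granzyme gene of these cells, averaged 0.939 ± 0.443 FPKM in CTX_HCQ and 2.79 ± 0.436 in Control, without overlap (difference -0.99, unadjusted p 0.00216, limma adjusted p 1.0). Trac, a T cell receptor gene, averaged 1.15 ± 0.152 FPKM in CTX_HCQ and 2.59 ± 1.09 in Control, also without overlap. The part of these cells in the level of Ccl5 was not tested. The interferon-induced chemokine gene Cxcl10 averaged 1.46 ± 0.28 FPKM in CTX and 0.467 ± 0.209 in Control. MHC class II genes, 6 of 8 tested, were higher in CTX than in Control in 6 of 6, with a median of 0.27, and lower in CTX_HCQ than in CTX in 6 of 6, with a median of -0.19. Limma called 0 in each. Over all tested genes as deposited, 49.5% were higher in CTX than in Control and 52.1% higher in CTX_HCQ than in CTX. With rescaled FPKM the MHC class II genes were higher in CTX than in Control in 6, but lower in CTX_HCQ than in CTX in 2 and higher in 4. Their medians were then 0.13 and 0.05, beside -0.16 and 0.23 over all genes.

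Cells other than macrophages express some of the members, and limma called 0 of their tested markers in any comparison. Lyz2 is also expressed by neutrophils, whose 12 markers summed to 3.01 to 6.05 FPKM in CTX_HCQ, 15.1 to 59.5 in CTX and 4.02 to 20.6 in Control. The 1 neutrophil marker that passed the filter was Ltf, at 1.61, 2.01 and 3.85 FPKM in CTX_HCQ, 21.1, 13.5 and 56.9 in CTX and 18.8, 0.436 and 0.158 in Control. Ltf was high in the libraries high in the oviduct gene Ovgp1, which had 4.69, 4.9 and 11.3 FPKM in CTX_HCQ, 91, 44.4 and 338.8 in CTX and 55.5, 4.01 and 1.01 in Control. Without Ltf, a choice made after the values were seen, the neutrophil markers summed to 1.4 to 4.04 FPKM in CTX_HCQ, 1.59 to 2.62 in CTX and 1.8 to 4.2 in Control, and these ranges overlapped. The defining marker Ly6g was at 0 in all 9 libraries. Oviduct and ciliated cell markers, 6 of 7 tested, summed to 9.49 to 18.3 FPKM in CTX_HCQ, 70.9 to 381.9 in CTX and 4.77 to 78.0 in Control, with the highest sum in CTX 3. Mrc1 is also expressed by lymphatic and sinusoidal endothelium, whose 8 markers, 6 of them tested, summed to 36.2 to 100 FPKM in CTX_HCQ, 46.8 to 87.8 in CTX and 44.8 to 74.2 in Control. Monocyte markers, 3 of 8 tested, summed to 41.0 to 43.1 FPKM in CTX_HCQ, 39.9 to 63.5 in CTX and 54.5 to 66.1 in Control. The 10 members themselves summed to 153.8 to 273.3 FPKM in CTX_HCQ, 188.8 to 236.0 in CTX and 146.4 to 214.7 in Control. The part of these cells in the members' levels was not tested.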

How the data were processed

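RNA of 9 libraries, 3 per group, was sequenced. The authors deposited 1 table of FPKM per Ensembl gene. The submitters' processing notes name DESeq2 1.20.0, featureCounts 1.5.0-p3, HISAT2 2.0.5 and fastp 0.23.2, and build GRCm39. Their settings and strandedness are not given in the sources used here, so reads of overlapping or antisense genes cannot be told apart. Symbols matched 52073 of 56748 identifiers. The annotation at hand is of GRCm38, so coordinates are given for RefSeq promoters alone.

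Values were analysed as log2(FPKM + 1) in 1 limma 3.58.1 fit (R 4.3.3) of all 9 libraries, with variances following a trend on mean expression, and adjusted by the Benjamini-Hochberg method per comparison. The fit was tested on simulated data. Whole reads were recovered, within 0.02 reads, for 14310 of the 14431 tested genes from exon lengths, 732 of them with a searched length, and voom was run on them. Within groups the chi-square of reads per degree of freedom was at least 15.3, so no libraries agreed within sampling noise.

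The members, gene lists and tests were chosen with earlier results of these data known. All members are named in every comparison; of each list, examples come from the genes that pass or otherwise the 4 of smallest p. A few genes falling under it are not reported here. Values of Csf1, Il34, Spi1, Trem2, Tlr4 and the cell markers are given as levels. Alternatives covered pseudocount, filter, scaling, weights, samples in the fit, replicate number and each library left out.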

Additional observations from a re-analysis of the deposited data

How the results depend on the processing

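No member passed in any comparison under any setting run, and the smallest adjusted p of a member was 0.0828 (Tyrobp, CTX against Control, limma with library weights). Library weights called 648 genes between CTX and Control, 1 between CTX_HCQ and CTX and 1 between CTX_HCQ and Control, where the fit as reported called 0. With 1 library left out, 0 to 13 genes were called in CTX against Control, 0 to 10 in CTX_HCQ against CTX and 0 to 0 in CTX_HCQ against Control; the 13 and the 10 came without Control 1. Members called stayed at 0. The members' median ranged from -0.02 to 0.23, from -0.26 to 0.13 and from -0.18 to 0.18. The causes were not tested.

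Of 291 member values with all libraries kept, 26 changed sign, all from values of at most 0.16 in size. For CTX against Control, rescaling FPKM to a common total gave C1qa -0.05, C1qc -0.04, Cd68 -0.07 and Lyz2 -0.07, removal of the length trend gave C1qa -0.06, C1qc -0.0044, Cd68 -0.07, Csf1r 0.02, Lyz2 -0.06 and Mrc1 0.06, and library weights gave Cd68 -0.1 and Mrc1 0.12. For CTX_HCQ against CTX, rescaling gave C1qa 0.18, C1qc 0.2 and Csf1r 0.17, length removal C1qa 0.12 and C1qc 0.12, weights C1qa 0.03, C1qc 0.14, Csf1r 0.03 and Lyz2 -0.1, and voom C1qc 0.02 and Csf1r 0.0049. For CTX_HCQ against Control, weights gave Adgre1 0.06, Lyz2 -0.01 and Cd14 0.06. Rescaling moved the median of all genes by -0.15, 0.21 and 0.06 in the 3 comparisons, and the members' median relative to it was 0.1, -0.05 and -0.03.

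With a library left out 34 of 270 values changed sign. In CTX against Control the ranges were -0.05 to 0.28 for C1qa, -0.19 to 0.36 for Cd68, -0.19 to 0.17 for Csf1r, -0.08 to 0.26 for Lyz2 and -0.24 to 0.13 for Mrc1. In CTX_HCQ against CTX they were -0.29 to 0.16 for C1qa, -0.21 to 0.21 for C1qc, -0.28 to 0.13 for Csf1r and -0.21 to 0.19 for Lyz2. In CTX_HCQ against Control they were -0.16 to 0.29 for C1qa, -0.21 to 0.26 for C1qb, -0.08 to 0.34 for C1qc, -0.3 to 0.07 for Csf1r, -0.1 to 0.31 for Lyz2, -0.36 to 0.13 for Cd14, -0.05 to 0.29 for Mrc1 and -0.39 to 0.11 for Tyrobp. Adgre1, Cd14 and Mrc1 have no value at a mean FPKM of at least 5.

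The replicate block called 0 genes and 0 members in each comparison. Same-numbered libraries correlated at -0.457 to 0.135, with 3 of 9 pairs over 0.1 and 0 libraries closest to their own number. No pairing by number was thus seen across whole libraries, and these correlations cannot show a weaker link. With 3 libraries a group, the 95% intervals of the members had half-widths of 0.42 to 0.72 on the log2 scale, which is the limit on what could be seen.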
